A study of Mus musculus with 3 samples.

Results

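The AP-1 genes described here are Jun, Junb, Jund, Fos, Fosb, Fosl1, Fosl2, Batf3, Maff and Mafk, 10 genes given by name out of 21887 protein-coding genes in the RefSeq annotation of the mouse build GRCm38. For each gene, every peak with a position inside the gene or within 50 kb of it was taken from 3 CUT&Tag peak lists and classed by whether its summit lay within 1 kb of either end of the gene. CUT&Tag directs a transposase to an antibody bound on chromatin, so that DNA near the bound protein is cut, tagged and sequenced. The cells were Pan02, a mouse pancreatic ductal adenocarcinoma line. The libraries were an anti-Flag library of Pan02 cells that stably express Flag-tagged POH1 (POH1-Flag), an anti-MYC library of those POH1-Flag cells, and an anti-MYC library of Pan02 cells labelled Vector, with 1 library in each group. POH1, the product of Psmd14, is a deubiquitinase in the lid of the proteasome, and the series title places it upstream of MYC. The sources used here do not state which promoter drives POH1-Flag, nor whether either line is a clone or a pool. With no replicates, every interval covers counting error only, no difference between the lines was tested, and line and library cannot be told apart.

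AP-1 is a family of dimeric basic leucine zipper (bZIP) transcription factors. JUN proteins (Jun, Junb, Jund) pair with one another or with FOS proteins (Fos, Fosb, Fosl1, Fosl2), which do not form stable homodimers, and the dimers bind the TRE and CRE elements. BATF3 is a short JUN partner known from dendritic cell development, and the small MAF proteins MAFF and MAFK lack an activation domain and pair with CNC factors such as NRF2. Several of the genes, Fos, Fosb, Jun, Junb and Maff among them, are switched on within minutes of growth factor or stress signals through MAP kinases and serum response factor. MYC binds E-box DNA as a dimer with MAX and is found at the promoters of many active genes.

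RefSeq promoter windows of GRCm38.p6, which run from 250 bases before a listed transcription start to 50 after it, were held for 9 of the 10 genes, in 11 windows. They are shown for Mafk and Maff, the genes with an E-box under a MYC peak, for Jun and Fos, whose windows lay wholly or nearly wholly under the MYC peaks and hold an AP-1 type element, and for Batf3, which has an E-box and no MYC peak at its start. Each is written 5′ to 3′ on the strand of the gene, and the capitals mark the E-box CACGTG, the CRE core TGACGT or its reverse complement ACGTCA, or the CRE-like element TGACATCA.
Mafk, chr5:139791286-139791585, plus strand: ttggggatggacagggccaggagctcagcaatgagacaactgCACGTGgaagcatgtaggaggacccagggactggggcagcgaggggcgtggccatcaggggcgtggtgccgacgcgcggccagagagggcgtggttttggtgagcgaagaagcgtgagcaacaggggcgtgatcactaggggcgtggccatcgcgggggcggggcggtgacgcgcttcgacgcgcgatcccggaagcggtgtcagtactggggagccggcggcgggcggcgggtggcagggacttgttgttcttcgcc
Maff, chr15:79347270-79347569, plus strand: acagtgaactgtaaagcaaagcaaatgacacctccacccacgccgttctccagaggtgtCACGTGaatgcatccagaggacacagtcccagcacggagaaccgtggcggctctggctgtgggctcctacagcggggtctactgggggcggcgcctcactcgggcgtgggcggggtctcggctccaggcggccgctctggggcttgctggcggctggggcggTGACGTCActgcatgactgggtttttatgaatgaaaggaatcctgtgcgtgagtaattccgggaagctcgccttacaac
Jun, chr4:95052173-95052472, minus strand: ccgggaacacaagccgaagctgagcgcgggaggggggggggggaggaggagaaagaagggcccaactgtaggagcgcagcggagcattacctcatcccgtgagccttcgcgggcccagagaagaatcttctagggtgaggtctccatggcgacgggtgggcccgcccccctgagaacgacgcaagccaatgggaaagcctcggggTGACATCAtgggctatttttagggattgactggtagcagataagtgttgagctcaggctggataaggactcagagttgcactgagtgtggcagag
Fos, chr12:85473640-85473939, plus strand: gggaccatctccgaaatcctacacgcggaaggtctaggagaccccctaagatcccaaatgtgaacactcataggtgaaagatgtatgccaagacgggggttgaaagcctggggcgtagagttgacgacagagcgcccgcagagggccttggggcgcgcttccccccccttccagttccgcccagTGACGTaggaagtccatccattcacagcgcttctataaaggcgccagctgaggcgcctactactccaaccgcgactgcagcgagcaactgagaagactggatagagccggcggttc
Batf3, chr1:191098164-191098463, plus strand: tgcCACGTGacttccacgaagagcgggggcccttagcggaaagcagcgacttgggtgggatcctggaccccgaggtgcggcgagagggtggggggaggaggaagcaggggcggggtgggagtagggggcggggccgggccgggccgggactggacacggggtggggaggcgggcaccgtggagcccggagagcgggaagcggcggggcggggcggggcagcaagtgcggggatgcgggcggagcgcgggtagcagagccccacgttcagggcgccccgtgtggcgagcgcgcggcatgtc

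The E-box of Mafk lay 208 bases before the start and 47 bp from the MYC summit in POH1-Flag cells, and 24 bp from it in vector cells. In Maff it lay 191 bases before the second of 3 listed starts, 69 bp from the summit in POH1-Flag cells and 38 bp from it in vector cells. The E-box of Batf3, 247 bases before the start, lay in no peak, and the nearest MYC summit was 35095 bp away in POH1-Flag cells and 35029 bp away in vector cells. CACGTG occurred in 7.84% of 21263 promoter windows, in 11.7% of those that met a POH1-Flag MYC peak and in 5.39% of those that did not. The 3 E-boxes of the AP-1 windows therefore include both kinds.

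The other elements are those through which AP-1 and CREB family proteins act. The CRE core was found in Fos, 66 bases before the start and 123 bp from the POH1-Flag MYC summit, and in the second Maff window, where the forward and reverse cores overlap. It occurred in 8.49% of all windows, in 13.8% of those that met a POH1-Flag MYC peak and in 5.13% of those that did not. TGACATCA, searched on both strands and known from the human JUN promoter as a site of JUN-ATF2 dimers, was found in Jun, 45 bases before the start and 70 bp from the POH1-Flag MYC summit, and in the third Maff window. It occurred in 3.66% of all windows, in 1.40% of those that met a POH1-Flag MYC peak and in 5.09% of those that did not. The TRE (TGACTCA or TGAGTCA, in 4.66% of windows) and the CArG box bound by serum response factor (1.52%) were in none of the 11 AP-1 windows. At such low shares, their absence from 11 windows does not set these genes apart. Bases farther upstream than the windows were not searched, so the genes are not shown to lack either element. The matches found describe the letters of the windows and were not tested as binding sites.

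MYC peaks lay at the ends of nearly all the AP-1 genes in both lines. In POH1-Flag cells 9 of the 10 genes had one, against 40.0% of all protein-coding genes, and in vector cells 8 of 10 had one, against 28.2% of all genes. Batf3 had none in either line, and Fosb had one in POH1-Flag cells and none in vector cells. Of all genes without a vector peak at their ends, 17.2% had one in POH1-Flag cells, and of all genes with a vector peak 98.0% had one again. No AP-1 gene had a Flag peak at its ends, where 0.196% of all genes had one.

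**Figure D1:**
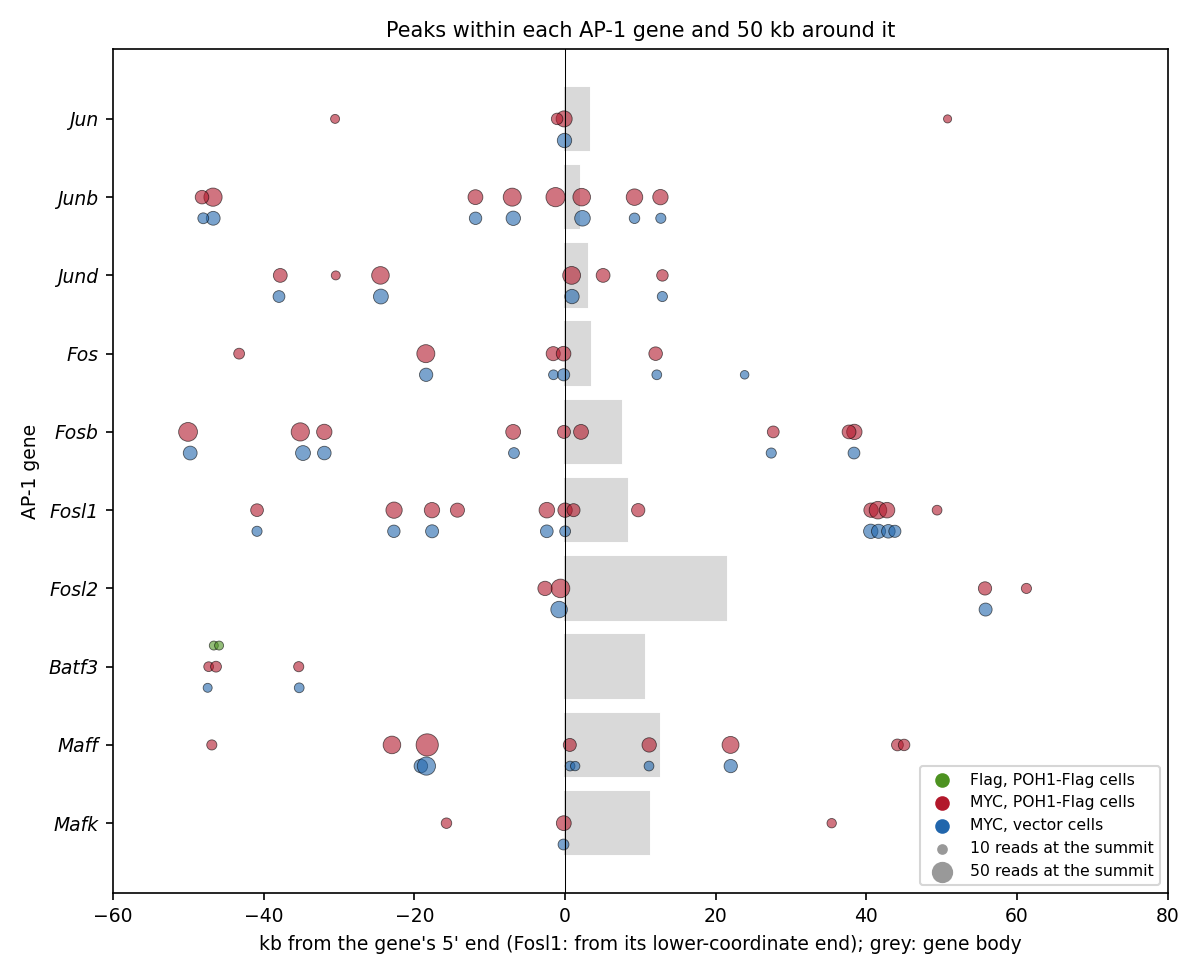
Positions of all peaks within each AP-1 gene and 50 kb around it, in kb from the 5′ end of the gene (Fosl1 from its lower-coordinate end, since its strand was not in the tables used), with the gene body in grey. Each gene has its POH1-Flag MYC peaks (62 in all) drawn above its vector MYC peaks (43 in all), the 2 Flag peaks are drawn above those of Batf3, and circle area grows with the reads at the summit.

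The signal of a peak is given as the reads stacked at its summit base, recovered from the deposited fold and p-value, which does not depend on the length of the gene. The 3 libraries had close genome-wide backgrounds, 4.06 reads per kb for Flag, 4.09 for MYC in POH1-Flag cells and 3.86 for MYC in vector cells, but their lists held 2936, 22647 and 12175 peaks. Only 1.46% of the Flag peaks lay at a gene end. For a ratio between the MYC lists, each pileup was first divided by its library's genome-wide background at a single base. This was 0.826 reads in POH1-Flag cells and 0.845 in vector cells. Division by the reads per kb gave lower ratios, 1.37 in place of 1.48 for the summed reads at AP-1 gene ends. Over the 5900 genes whose strongest gene-end MYC peaks overlapped between the lines, the ratio of POH1-Flag over vector cells exceeded 1 at 98.5% and had a median of 1.65 (0.72 on the log2 scale), so single genes are read against that shift.

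Among the JUN genes, Jund had 43 reads at its summit in POH1-Flag cells (95% Poisson interval 31.1 to 57.9) and 28 in vector cells (18.6 to 40.5), a ratio of 1.57 (0.954 to 2.63). The summit lay inside this single-exon gene, 881 bp past its start in POH1-Flag cells and 927 bp past it in vector cells. No listed peak covered any base of the Jund promoter window. Jund, at chr8:70697739-70700616, encodes the JUN protein that is usually present in resting cells. Jun, at chr4:95049036-95052222 on the minus strand, had 35 reads in POH1-Flag cells and 28 in vector cells, a ratio of 1.28 (0.756 to 2.18). Its peaks covered the start itself, with the summit 112 bp upstream in POH1-Flag cells and 154 bp upstream in vector cells, and with nearly equal widths of 773 bp in POH1-Flag cells and 762 bp in vector cells. The authors' fold at Jun was 5.67 in the POH1-Flag list, with a −log10 q of 13.9, and 6.35 in the vector list, with a −log10 q of 12.3.

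Junb, at chr8:84976909-84978748 on the minus strand and often an antagonist of JUN in cell cycle control, was the JUN gene whose gene-end summit lay over 1 kb from its start. That peak had 42 reads in POH1-Flag cells and 33 in vector cells, a ratio of 1.3 (0.806 to 2.12), and its summit lay beyond the 3′ end of the gene, by 378 bp in POH1-Flag cells and 483 bp in vector cells. A stronger peak, 1251 bp upstream of the start and so just outside the 1 kb limit, had 50 reads in POH1-Flag cells and no counterpart in the vector list. It stood on a high local background, with an authors' fold of 2.94. The gene ends of Jun, Junb and Jund were thus marked in both lines, each at a ratio below the median of all shared genes. That median lay inside the interval of each, so none differed from it beyond counting error.

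Among the FOS genes, Fosl2 had the highest gene-end signal of all 10 members in both lines. It encodes FRA-2, a FOS protein that persists after FOS itself has decayed. Its peak, upstream of the gene at chr5:32136472-32157840, had 47 reads in POH1-Flag cells (34.5 to 62.5) and 37 in vector cells (26.1 to 51.0), a ratio of 1.3 (0.827 to 2.06). The summit lay 595 bp before the start in POH1-Flag cells and 783 bp before it in vector cells, the −log10 q was 16.1 in each list, and the peak was 1046 bp wide in POH1-Flag cells and 741 bp wide in vector cells. No listed peak covered any base of the Fosl2 promoter window.

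Fos, the prototype immediate early gene, at chr12:85473890-85477274, had 29 reads in POH1-Flag cells and 20 in vector cells, a ratio of 1.48 (0.811 to 2.77). Its summits almost coincided, 187 bp before the start in POH1-Flag cells and 176 bp before it in vector cells, and both peaks covered all 300 bases of the window printed above. Fosl1, at chr19:5447698-5455938, encodes FRA-1, a FOS protein linked to the mesenchymal state of carcinoma cells. It had 28 reads in POH1-Flag cells and 16 in vector cells, a ratio of 1.79 (0.936 to 3.54), with the summit 10 bp inside its lower-coordinate end in POH1-Flag cells and 20 bp inside it in vector cells.

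In the lists as deposited, Fosb was the only AP-1 gene whose ends carried a MYC peak in 1 line alone. This gene, at chr7:19302696-19310118 on the minus strand, had a 291 bp wide peak of 23 reads (14.6 to 34.5) 135 bp before its 5′ end in POH1-Flag cells, with an authors' fold of 3.29 and a −log10 q of 4.39, the weakest −log10 q of the 9 gene-end peaks in that list. The call was lost at equal list length, where Fosb had no gene-end peak in either list, and with peaks under a −log10 q of 5 left out, the genes with a gene-end peak in POH1-Flag cells alone were 3 others, Fosl1, Maff and Mafk. A second peak inside Fosb, 2129 bp past the 5′ end, was also listed in POH1-Flag cells alone, with 30 reads and a width of 1237 bp. The absence of a listed peak is not a measured level, so no ratio is given for either.

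The small MAF genes had the 2 largest ratios, but Maff (1.81) was barely above Fosl1 (1.79). The ratio intervals of all 8 shared genes overlapped. Mafk, at chr5:139791536-139802653, had 30 reads in POH1-Flag cells (20.2 to 42.8) and 16 in vector cells (9.15 to 26.0), a ratio of 1.92 (1.01 to 3.77). Mafk was the only one of the 8 shared genes whose interval excluded 1. Of all 9928 pairs of overlapping MYC peaks, 20.2% had an interval above 1. Those pairs include 4742 over 1 kb from any gene end, and the share at gene ends alone is not given here. Maff, at chr15:79346621-79359078, had 23 reads in POH1-Flag cells and 13 in vector cells, a ratio of 1.81 (0.879 to 3.89). Its POH1-Flag peak was 1374 bp wide, the widest at an AP-1 gene end, and spanned 2 separate vector peaks of 339 bp and 410 bp. Its summit lay 258 bp before the second listed start in POH1-Flag cells and 227 bp before it in vector cells, and the window of the first start met no MYC peak. Batf3, at chr1:191098414-191108943, had no peak inside the gene in any list, and its MYC peaks, 3 in POH1-Flag cells and 2 in vector cells, all lay 35274 bp or more upstream.

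**Figure D2:**
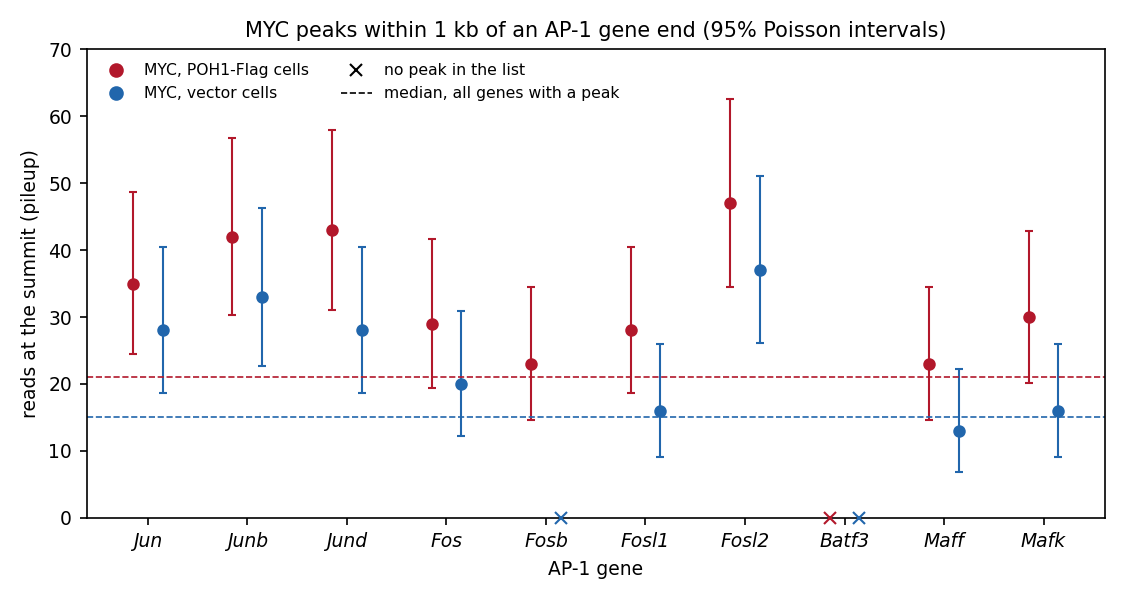
Reads at the summit of the MYC peak within 1 kb of an end of each AP-1 gene, with 95% Poisson intervals, for POH1-Flag cells (left point of each gene) and vector cells (right point), where a cross marks a gene with no listed peak and dashed lines mark the medians over all genes with a peak (21.0 reads in POH1-Flag cells, 15.0 in vector cells). The POH1-Flag point is the higher at each of the 8 shared genes, and the paired intervals overlap at every one of them.

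Ordered by reads, the genes ran Fosl2, Jund, Junb, Jun, Mafk, Fos, Fosl1, Fosb and Maff in POH1-Flag cells, with Fosb and Maff level at 23 reads. In vector cells the order was Fosl2, Junb, Jun, Jund, Fos, Fosl1, Mafk and Maff, with Jun level with Jund and Fosl1 level with Mafk. No 2 neighbours in either order differed beyond counting error. The highest over the lowest, Fosl2 over Maff, was 2.04 in POH1-Flag cells and 2.85 in vector cells, given as a description since the pair was picked by rank. The AP-1 genes with a peak had a median of 30.0 reads in POH1-Flag cells, against 21.0 over all genes with a peak, and 24.0 in vector cells, against 15.0. All 9 lay above the median of all genes in POH1-Flag cells, and 7 of 8 did in vector cells, the exception being Maff.

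Over the 8 shared AP-1 genes the ratio of POH1-Flag over vector cells had a median of 1.53 (0.61 on the log2 scale), against 1.65 over all shared genes. It exceeded 1 at all 8, and it reached 1.5 at 4 of them (Jund, Fosl1, Maff and Mafk), against 66.5% of all shared genes. The summed reads of the 8 genes gave a ratio of 1.48 (1.23 to 1.79). That interval pools the reads of the genes, so it leaves out the spread between genes and between libraries. By these medians, the higher MYC signal at AP-1 gene ends was of the size seen over the whole list. Jun, Junb, Jund, Fos and Fosl2 lay below the median of all shared genes, which was inside the interval of each.

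The signal around the summits was higher too. The background against which each summit was called equals the reads in the 10 kb around it, the summit's own reads included. In POH1-Flag cells this local background was a median of 8.31 times the genome-wide one at the AP-1 gene ends (5.28 at Maff to 15.8 at Junb), against 3.01 over all genes with a peak, and in vector cells it was 4.78 times (up to 10.9 at Junb), against 2.15. Every AP-1 gene with a peak lay above the all-gene median in each line. Several listed peaks in 1 window add to the same local background. Their authors' fold had a median of 4.47 in POH1-Flag cells (all genes 6.26), where 0 of 9 exceeded the all-gene median, and of 4.23 in vector cells (all genes 5.66), where 2 of 8 did.

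For ratios between the lines, the reads in each 10 kb were divided by the library's genome-wide reads per kb. The 10 kb around Mafk held 347 reads in POH1-Flag cells and 180 in vector cells, a ratio of 1.82 (1.52 to 2.19). Around Fosl2 it held 423 reads in POH1-Flag cells and 224 in vector cells, a ratio of 1.78 (1.51 to 2.11). Around Jun it held 265 in POH1-Flag cells and 163 in vector cells, a ratio of 1.53 (1.26 to 1.88), and Junb had the lowest ratio, 1.45 (1.28 to 1.64). Over the 8 genes the median was 1.69, against 1.59 over all shared genes, and 7 of 8 reached 1.5, against 63.1% of all shared genes.

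Set against this surrounding signal, the summit ratios lay around 1. The summit over its local background had a POH1-Flag over vector ratio with a median of 0.964 over the 8 genes, against 1.05 over all shared genes. It lay above 1 at Jund, Fosl1, Maff and Mafk (4 of 8, against 58.5% of all shared genes, highest 1.05) and below 1 at Fosl2 (0.729), Jun (0.834), Fos (0.878) and Junb (0.899). The direction of the difference at these last genes thus reversed with the scaling. What the surrounding signal consists of was not tested.

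**Figure D3:**
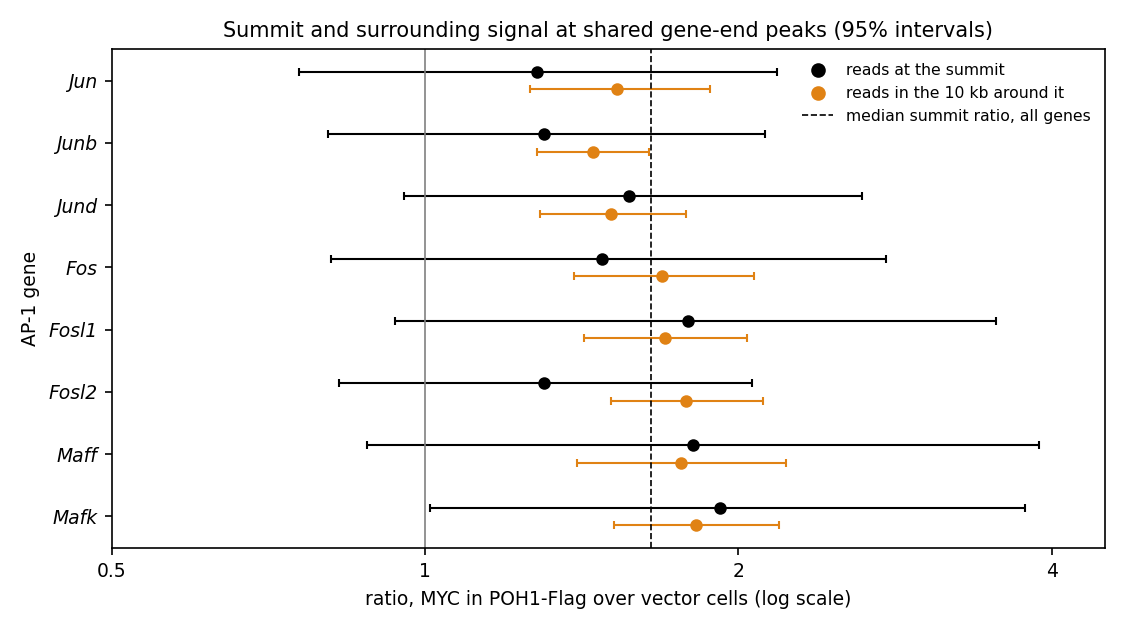
Ratios of MYC in POH1-Flag over vector cells at the 8 AP-1 genes with overlapping gene-end peaks in both lines, on a log axis, with 95% intervals that cover counting error, for reads at the summit (black, above) and reads in the 10 kb around it (orange, below). The 10 kb ratios lie between 1.45 and 1.82 with intervals above 1 at every gene, while the summit intervals include 1 at all genes but Mafk; the dashed line is the median summit ratio over all shared genes, 1.65.

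The windows around the AP-1 genes were rich in MYC peaks. They held 62 peaks in POH1-Flag cells and 43 in vector cells, a median of 5.5 per gene in POH1-Flag cells (2 over all genes) and 4.5 in vector cells (1 over all genes). At least 1 MYC peak was found around each of the 10 genes in both lines, against 75.7% of all genes in POH1-Flag cells and 62.8% in vector cells. Fosl1, in a gene-dense stretch of chromosome 19, had the most, 12 in POH1-Flag cells and 9 in vector cells. Jun, whose start-site peak lay 73179 bp from the nearest other gene (Mysm1), had 4 in POH1-Flag cells and 1 in vector cells. Beyond the gene-end peaks there were 53 in POH1-Flag cells, of which 18 lay within 1 kb of an end of another gene, and 35 in vector cells, of which 16 did.

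Most of the farther vector peaks had a POH1-Flag counterpart, whereas fewer of the farther POH1-Flag peaks had a vector one. Away from all gene ends, 17 of 35 POH1-Flag peaks (48.6%) met a vector peak, against 33.7% of all such peaks of that list, and 18 of 19 vector peaks (94.7%) met a POH1-Flag peak, against 74.0%. The 31 pairs had a median ratio of 1.59 (0.67 on the log2 scale), against 1.55 (0.63) over all 9928 pairs of overlapping MYC peaks in the lists. All 31 were above 1, against 91.0% of all pairs, and 19 were at 1.5 or more, against 54.7%. The interval excluded 1 at 9 pairs, each with the higher value in POH1-Flag cells, against 20.2% of all pairs. The farther AP-1 peaks had a median of 27.0 reads in POH1-Flag cells and 21.0 in vector cells. These include peaks at ends of other genes, 18 of 53 in POH1-Flag cells and 16 of 35 in vector cells. Peaks over 1 kb from any gene end, which leave such peaks out, had a median of 13.0 in each list. The sets differ in kind, so their medians are not read as a contrast. Counting intervals narrow with more reads, so the shares of pairs whose interval excluded 1 are not compared at equal depth. The 17 pairs away from gene ends, with a median of 1.61 (1.07 to 2.34), and the 14 at ends of other genes, with 1.56 (up to 2.52 beside Rnaseh2a), had close medians. Over all pairs away from gene ends the median was 1.43, with 83.1% above 1 (17 of 17 here) and 43.6% at 1.5 or more (11 of 17 here). Against local background, the farther pairs had a median ratio of 0.989 (all pairs 1.03), and 15 of 31 were higher in POH1-Flag cells, against 55.7% of all pairs.

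The strongest MYC site in any AP-1 window lay 18286 bp upstream of Maff, at an end of Pla2g6, with 67 reads in POH1-Flag cells and 45 in vector cells (ratio 1.52, 1.03 to 2.27). Near Fos, a site 18468 bp before the start lay 80705 bp from the nearest end of another protein-coding gene (Tmed10). It had 44 reads in POH1-Flag cells (32.0 to 59.1) and 24 in vector cells (15.4 to 35.7). The ratio was 1.88 (1.12 to 3.23). The Fos start had fewer reads in each line, but its intervals (19.4 to 41.6 and 12.2 to 30.9) overlapped these. A nearer site, 1563 bp before the start, had 27 reads in POH1-Flag cells and 13 in vector cells (2.13, 1.06 to 4.49). Fos thus had 3 upstream MYC sites that were listed in both lines.

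Around Junb the largest ratios stood beside Rnaseh2a, with 37 reads in POH1-Flag cells and 15 in vector cells at its end (2.52, 1.35 to 4.95) and, 3518 bp from it, 32 reads in POH1-Flag cells and 14 in vector cells (2.34, 1.21 to 4.74). Fosb had a shared site 6877 bp before its 5′ end, with 30 reads in POH1-Flag cells and 16 in vector cells (1.92, 1.01 to 3.77), which in vector cells was the nearest listed peak to Fosb. Maff had one inside its 3′ part, 1282 bp from the gene's end, with 28 reads in POH1-Flag cells and 13 in vector cells (2.2, 1.10 to 4.63). At the other extreme, a site 34378 bp beyond the 3′ end of Fosl2 had 24 reads in POH1-Flag cells and 23 in vector cells (1.07, 0.577 to 1.98), and one at the end of Mus81 in the Fosl1 window had 28 in each (log2 ratio 0.03).

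**Figure D4:**
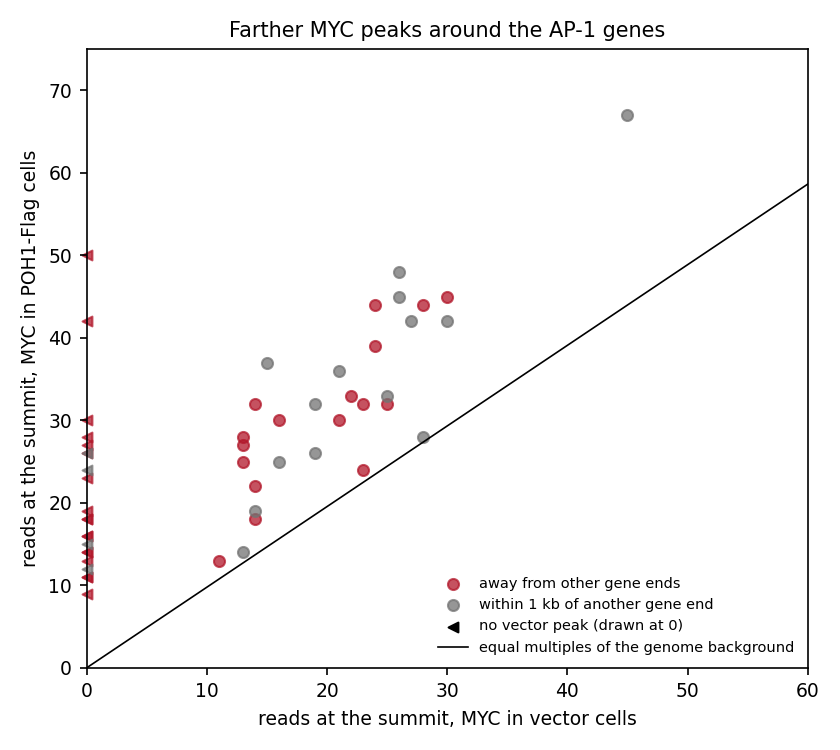
Reads at the summit in POH1-Flag cells (vertical axis) and vector cells (horizontal axis) for the 31 farther MYC sites around AP-1 genes that both lists hold, in red away from other gene ends and in grey within 1 kb of one, with triangles at 0 for the 22 POH1-Flag peaks that have no vector peak. All 31 points lie above the line of equal multiples of the genome-wide background, and the 2 peaks found in the vector list alone are not drawn.

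The 22 farther peaks listed in POH1-Flag cells alone were spread over all 10 genes, and 4 of them lay at an end of another gene. They had 9 to 50 reads with a median of 18.0 in POH1-Flag cells. At equal list length, with the POH1-Flag list cut to the strongest 12175 peaks, 7 such peaks were left. The 3 strongest were the Junb upstream peak of 50 reads, a peak of 42 reads 22967 bp before Maff and the peak of 30 reads inside Fosb. Fosl2 had one of 28 reads 2646 bp before its start, and Jun one of 18 reads 1045 bp before its start, just outside the limit of 1 kb. Mafk had its only farther peaks at the ends of Ints1 (15 reads) and Psmg3 (12 reads), both in POH1-Flag cells alone. The vector list alone held 2, a peak of 10 reads 20458 bp beyond Fos and one of 25 reads near Pla2g6 in the Maff window.

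Flag peaks of POH1-Flag cells were found in the window of Batf3 alone, so 1 of 10 AP-1 genes had any, against 10.9% of all genes. The 2 peaks lay 46611 bp and 45908 bp upstream of Batf3, each 233 bp wide, the narrowest width in that list, with 11 reads each. Their authors' fold was 3.90 and 3.96 and their −log10 q was 2.24 and 2.32. Neither met a MYC peak, although a POH1-Flag MYC peak of 16 reads had its summit between them, 46316 bp upstream. None of the 62 POH1-Flag MYC peaks and none of the 43 vector MYC peaks around the AP-1 genes met a Flag peak. The share of all MYC peaks that meet a Flag peak is not given here, so this is not read as particular to the AP-1 genes.

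Related genes were counted in 3 lists, chosen like the members with results of these data already known. Of 17 other AP-1, MAF and CNC bZIP genes, 11 had a gene-end MYC peak in POH1-Flag cells and 7 in vector cells, against 40.0% and 28.2% of all genes in POH1-Flag and vector cells, and the 6 that shared one had a median ratio of 1.46, against 1.65 over all shared genes. The strongest by −log10 q in POH1-Flag cells were Atf7 and Atf2, partners of JUN at CRE sites, and Nfe2l2 and Nfe2l1, CNC partners of the small MAFs. Atf7 had 58 reads in POH1-Flag cells and 43 in vector cells (1.38, 0.914 to 2.10), Nfe2l2 had 53 in POH1-Flag cells and 36 in vector cells (1.51, 0.968 to 2.37), and Nfe2l1 had 41 in POH1-Flag cells and 24 in vector cells (1.75, 1.03 to 3.02). Bach2, named after its value was seen, had a peak of 9 reads in vector cells alone.

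Of 23 MAP kinase and serum response regulators, which act upstream of the immediate early AP-1 genes, 20 had a gene-end MYC peak in POH1-Flag cells (all genes 40.0%) and 15 in vector cells (all genes 28.2%). The ratio was at least 1.5 at 10 of the 15, near the 66.5% of all shared genes. Mapk8, which encodes the JUN kinase JNK1, had 38 reads in POH1-Flag cells and 18 in vector cells (2.16, 1.20 to 4.02), and Cop1, a ubiquitin ligase for JUN, had 36 in POH1-Flag cells and 24 in vector cells (1.53, 0.891 to 2.69). Of 19 genes known as AP-1 targets, 13 had a gene-end peak in POH1-Flag cells (all genes 40.0%) and 8 in vector cells (all genes 28.2%), with a median ratio of 1.38 over the 8, against 1.65 over all shared genes. Cd44, a cell surface receptor for hyaluronan, had 24 reads in POH1-Flag cells and 13 in vector cells (1.89, 0.924 to 4.04), and Ier2, an immediate early gene, had 37 in POH1-Flag cells and 33 in vector cells (1.15, 0.698 to 1.89). None of the 3 lists had a gene-end Flag peak. In each list 5 genes had a peak in POH1-Flag cells and none in vector cells, where 17.2% of all genes without a vector peak gained one. These were 5 of 10 bZIP genes, 5 of 8 regulators and 5 of 11 targets without a vector peak.

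Markers of pancreatic and other cells could not check the label through expression, since a MYC peak is not a transcript. Of 7 epithelial and ductal markers, 2 had a gene-end MYC peak in POH1-Flag cells (Krt7 and Sox9) and 1 in vector cells (Sox9), against 40.0% of all genes in POH1-Flag cells and 28.2% in vector cells. Endocrine markers had 1 of 4 in each line, macrophage markers 1 of 3 in POH1-Flag cells and 0 of 3 in vector cells, and acinar (0 of 5) and T cell markers (0 of 3) had none in either. By nearness in log2 summit signal over the 2 MYC libraries, Fosl2 was closest to Napepld (47 reads in POH1-Flag cells, 36 in vector cells) and Agpat1 (48 in POH1-Flag cells, 36 in vector cells), and Jund had the same reads as Ankrd50 and Dpagt1 (43 in POH1-Flag cells, 28 in vector cells), out of 5848 candidate genes. With 2 libraries such likeness is only a match of 2 values.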

How the data were processed

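CUT&Tag peak lists of 3 Pan02 libraries were analysed, each library being its own group by its title. The submitters' processing notes name MACS2 2.2.7.1, BWA 0.7.17-r1188, Trim Galore 0.6.6 and FastQC 0.11.9, and the build GRCm38 (mm10). The sources used here give neither parameters nor a control library nor the handling of duplicates. The deposited lists carry, for each peak, the authors' fold enrichment (a ratio), −log10 p, −log10 q and a score, which is 10 times the truncated −log10 q in at least 99.98% of peaks of each list. Fold and q describe peaks within 1 list and were not compared between lists as a change. The smallest deposited −log10 q was 1.36 in the Flag list and 1.30 in each MYC list.

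From fold, read as (k + 1)/(λ + 1), and the Poisson tail beyond k, the whole pileup k and the local background λ of each summit were computed. In 100% of peaks k was whole within 0.01 of a read, and λ fell on whole reads of a 10 kb window within 0.05 in 100% of the peaks whose λ was over 1.04 times the smallest one (at least 91.0% of each list). The smallest λ, 0.946 for Flag and, for MYC, 0.826 with POH1-Flag and 0.845 with vector, was taken as genome-wide background, and the smallest peak width (233, 202 and 219 bp) as fragment length. Total reads are not known. Ratios carry exact conditional Poisson 95% intervals, which duplicate reads would make too narrow. A pileup of 23 reads has an interval of 14.6 to 34.5.

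Genes, promoter windows and strands came from RefSeq tables of GRCm38.p6. All 10 genes matched by symbol, and exons and introns were not annotated. Overlap meant 1 bp or more, a farther pair was made of peaks that were each other's strongest overlapping partner, and a ratio of 1.5 was the size counted. Peaks on unplaced contigs (108, 369 and 224) were near no gene. All AP-1 genes are named, other genes only as a nearest gene end, as 1 of the 4 members of a list with the largest −log10 q, or as nearest in MYC signal, and some genes this rule names are not reported here. The members and lists were chosen with earlier results of these data known. Alternatives were stricter q or fold, lists of equal length, other gene-end limits and window sizes, a stricter overlap, and other scalings. The steps were first tested on simulated data. Computations used Python 3.11.15, NumPy 2.4.6, pandas 2.3.3, SciPy 1.17.1 and Matplotlib 3.10.9.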

Additional observations from a re-analysis of the deposited data

How the results depend on the processing

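No paired analysis was possible because each group holds 1 library and no replicate numbers pair them, and for the same reason no library could be left out. With pileups over the local background, the summed ratio of POH1-Flag over vector cells turned round, to 0.915 at AP-1 gene ends and 0.975 at the farther sites, and likewise at Fos (0.878), Fosl2 (0.729), Jun (0.834) and Junb (0.899). By construction this divides by a local signal that was itself higher in POH1-Flag cells. Unscaled pileups (1.45 at gene ends, 1.55 farther) and pileups over reads per kb (1.37 and 1.46) kept the direction of 1.48 and 1.59.

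A −log10 q of at least 5 left 5 vector gene-end genes, 3 genes with a gene-end peak in POH1-Flag cells only, 25 vector peaks in the windows, 18 shared farther peaks, and 0 Flag peaks and genes. A fold of at least 5 left 2 gene-end genes in each line, 0 in POH1-Flag cells only, 16 POH1-Flag and 13 vector window peaks, 4, 10 and 1 farther peaks (POH1-Flag only, both, vector only) and 0 Flag peaks and genes. At equal list length, 0 genes and 7 farther peaks were in POH1-Flag cells only, and 4 farther peaks in vector cells only. A summit limit of 500 bp left 5 vector genes. With 25 kb around the genes there were 37 POH1-Flag and 28 vector peaks, 0 Flag peaks and genes, and 11 farther peaks in POH1-Flag cells only and 17 in both. With 100 kb there were 100 POH1-Flag peaks, 39 farther in POH1-Flag cells only and 52 in both. An overlap of 50% of both peaks left 9 farther peaks in vector cells only. Without summits at other gene ends, 17 were shared and 1 was in vector cells only. Of the other values, 54 were counts that stayed within 1.5 times the printed count or summed ratios that kept their direction, and 45 single-gene ratios kept theirs. Some of the 54 could not have changed. Cutting the POH1-Flag MYC list leaves Flag and vector counts per list as they are, and a Flag count of 0 cannot rise under a stricter rule. The Flag gene-end counts were also entered more than once, so the 54 does not measure stability. Depth limits single genes: 7 of the 8 summit intervals include 1.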
